A study of Saccharomyces cerevisiae with 48 samples.

Results

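The 5 yeast transcripts described here encode the fatty acyl-CoA synthetases FAA1 (YOR317W), FAA2 (YER015W), FAA3 (YIL009W) and FAA4 (YMR246W), and the acyl-CoA binding protein ACB1 (YGR037C). They were taken by systematic name from 6713 gene identifiers, and all 5 were measured in all 48 libraries. An acyl-CoA synthetase joins a free fatty acid to coenzyme A, which is the form in which the cell can build it into membrane lipids, store it, lengthen it or burn it in peroxisomes. Faa1 and Faa4 activate the long-chain fatty acids that yeast takes up from its medium. Faa2 activates medium-chain fatty acids in peroxisomes, and Faa3 is a further long-chain synthetase. Acb1 binds the acyl-CoA esters these enzymes make and carries them to the enzymes that use them. Yeast without oxygen can neither desaturate fatty acids nor make sterols, and growth then leans on lipids from the medium.

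The libraries came from 3 wild isolates of Saccharomyces cerevisiae, the West African strain WA (NCY3290), the mosaic papaya isolate PAP (Y7568) and the mosaic Illinois isolate IL01. Each was grown in log phase in rich medium (YPD) with 0.8% 1-butanol, 1% isobutanol or ethanol, and in YPD alone, in an anaerobic chamber and in shaken aerobic flasks. The ethanol dose was 3% in anaerobic and 4% in aerobic cultures, so the oxygen comparison in ethanol also carries a difference in dose. Every combination of strain, medium and oxygen has 2 replicates, collected on different days. Values are RPKM, reads scaled by gene length and by the mapped reads of the library, a scale on which levels of different genes can be set side by side. Differences and their standard errors (SE) are on the log2(RPKM + 0.5) scale, which understates changes of genes with few reads. A gene passed the test where its limma p-value, adjusted over all genes tested, met a false discovery rate under 1%.

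Mapped reads per library ran between 7480286 and 13938540, of which 55.6% to 84.4% fell in genes, with the lowest share in PAP YPD anaerobic replicate 2. Replicates correlated at 0.936 to 0.992 over 5704 genes. TIR1, which encodes a mannoprotein induced without oxygen, lay between 2351 and 8655 RPKM in the 24 anaerobic libraries and between 0 and 14.0 RPKM in the 24 aerobic ones without overlap. The strain label of 1 group went against the data. Across the other libraries 6 genes separated the 14 WA libraries from the 32 PAP and IL01 libraries without overlap by at least 2 log2 units, and in both libraries labelled WA ethanol anaerobic 5 of these 6 lay on the side of PAP and IL01. SNZ3, for instance, had 6.22 to 32.6 RPKM in the other WA libraries and 0 in these 2, while DFP2 had the high level of WA. Differences in anaerobic ethanol are therefore given over PAP and IL01, and the libraries labelled WA ethanol anaerobic are given apart. Ranges, medians and shares over all 24 anaerobic libraries include them. The main fits with anaerobic ethanol also hold them, where they enter the estimate of spread. Without them the lowest anaerobic FAA1 value is 0.0606 RPKM and the median 0.4535 RPKM.

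The genes lie on 5 chromosomes of the R64 reference assembly, each with a single coding exon. FAA1 is at chrXV:909343-911445, FAA2 at chrV:184541-186775, FAA3 at chrIX:339344-341428 and FAA4 at chrXIII:759807-761891, all on the plus strand, and the 264-base ACB1 is at chrVII:559731-559994 on the minus strand. FAA2 overlaps BUD25, a gene on the opposite strand, by 160 bases, and since the strand setting of the counting is not stated, reads of that stretch cannot be assigned with certainty. The other 4 overlap no annotated gene. FAA3 and FAA4 are the closest pair, with 76.8% of aligned coding bases identical and a longest identical run of 35 bases. FAA1 and FAA4 share 66.5% of aligned bases and no run over 23. No 100-base window of any of the 5 coding sequences occurs elsewhere in the reference genome, and reads were 100 bases long.

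FAA1 and FAA4 encode enzymes of like substrate and took opposite directions with oxygen, and FAA2 is the peroxisomal member, so the promoter regions of these 3 are shown. Each line gives the 300 bases from -400 to -101 relative to the start codon, 5' to 3' on the coding strand, from chrXV:908943-909242 for FAA1, chrXIII:759407-759706 for FAA4 and chrV:184141-184440 for FAA2 (R64), with the matches described next in capitals.
FAA1: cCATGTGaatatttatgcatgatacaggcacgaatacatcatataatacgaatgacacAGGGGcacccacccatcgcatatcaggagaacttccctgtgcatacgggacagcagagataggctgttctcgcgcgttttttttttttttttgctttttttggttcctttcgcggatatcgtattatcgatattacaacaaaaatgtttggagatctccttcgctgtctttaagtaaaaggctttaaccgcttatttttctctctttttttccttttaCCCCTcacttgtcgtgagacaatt
FAA4: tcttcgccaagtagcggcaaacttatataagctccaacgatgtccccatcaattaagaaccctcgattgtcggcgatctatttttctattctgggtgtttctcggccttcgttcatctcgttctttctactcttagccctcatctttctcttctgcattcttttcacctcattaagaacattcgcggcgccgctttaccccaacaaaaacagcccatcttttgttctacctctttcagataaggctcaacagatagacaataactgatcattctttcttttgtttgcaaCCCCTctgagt
FAA2: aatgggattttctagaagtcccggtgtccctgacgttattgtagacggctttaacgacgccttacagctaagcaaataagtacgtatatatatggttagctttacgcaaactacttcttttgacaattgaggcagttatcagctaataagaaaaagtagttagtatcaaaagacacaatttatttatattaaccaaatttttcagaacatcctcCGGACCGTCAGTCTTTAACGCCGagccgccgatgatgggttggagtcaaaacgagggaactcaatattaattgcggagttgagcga
Both strands of the 5 windows were searched for 6 short motifs, none of which overlaps another here. FAA2 held 1 match to the oleate response element bound by Oaf1 and Pip2 (CGG and CCG, 15 to 18 bases apart, present in 6.55% of 6001 such windows). FAA1 held the inositol element core CATGTG (9.27% of windows) and 2 matches to the stress response element AGGGG bound by Msn2 and Msn4 (23.5%), 1 of them on the minus strand, and FAA4 held 1 match to AGGGG, also on the minus strand (CCCCT as printed). No window of the 5 held the low oxygen response element ACTCAACAA (0.233% of windows), the sterol element core TCGTATA (4.58%) or the Rox1 core ATTGTT (31.9%), and FAA3 and ACB1 held none of the 6. These letters describe the windows and say nothing of binding. The first bases of the FAA2 window lie within HEM14, which ends 321 bases before FAA2. The whole FAA2 window, with its oleate element match, lies within the annotated span of BUD25 (chrV:183731-184700) on the opposite strand.

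Levels differed widely among the 5 genes. ACB1 was the highest, with 1283 to 3160 RPKM (median 1988) in the 24 anaerobic libraries and 451 to 2400 RPKM (median 725) in the 24 aerobic ones. FAA4 led the synthetases at 325 to 1626 RPKM (median 858) in anaerobic and 174 to 767 RPKM (median 297) in aerobic libraries. FAA3 lay at 39.6 to 80.2 RPKM (median 60.5) in anaerobic and 27.5 to 82.4 RPKM (median 51.6) in aerobic libraries. FAA2, with 28 to 435 reads per library, was low throughout, at 3.95 to 18.1 RPKM (median 6.92) in anaerobic and 1.60 to 4.55 RPKM (median 3.11) in aerobic libraries. FAA1 had 0.0509 to 1.72 RPKM (median 0.419) in anaerobic libraries, against 21.5 to 195 RPKM (median 67.6) in aerobic libraries. Its reads numbered 1 to 27 per anaerobic library and 351 to 4369 per aerobic library, and 3 reads, a floor that covers counting error only, would be 0.102 to 0.191 RPKM.

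**Figure D1:**
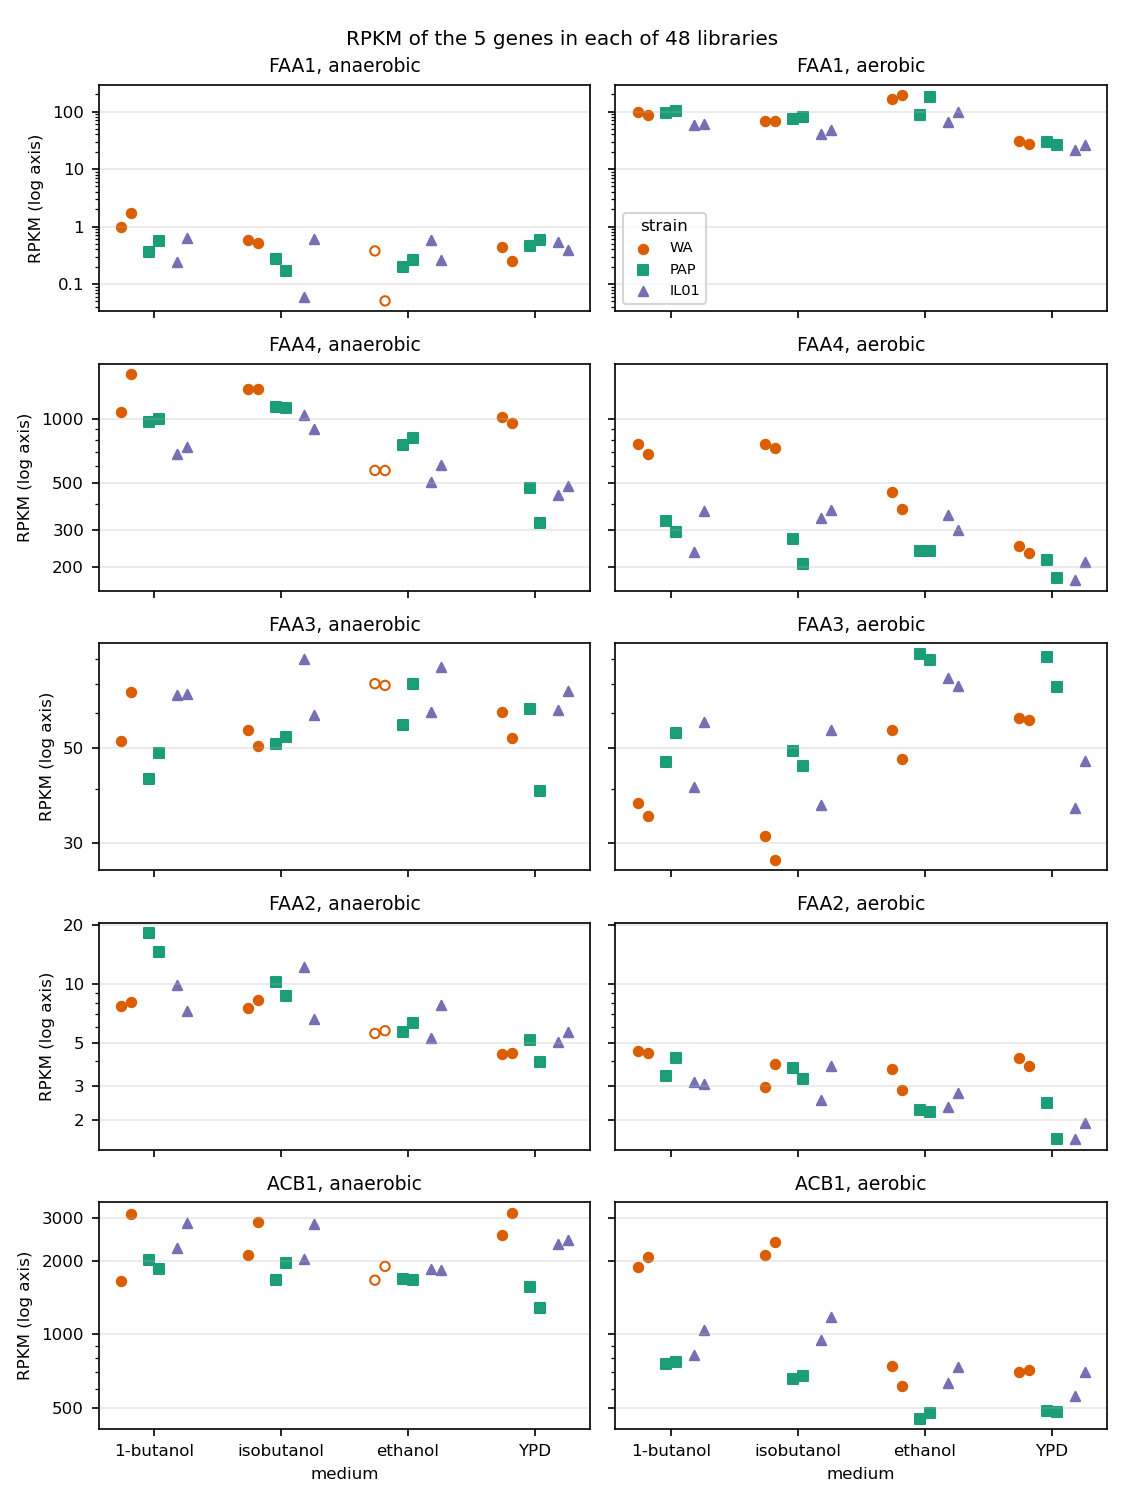
RPKM (log axis) of FAA1, FAA4, FAA3, FAA2 and ACB1 in all 48 libraries, with anaerobic cultures on the left, aerobic cultures on the right and the medium along each axis. Each point is 1 library, marked by strain, and the open circles are the libraries labelled WA ethanol anaerobic. FAA1 stays at or under 1.72 RPKM in anaerobic libraries and at or above 21.5 RPKM in aerobic libraries.

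The first comparison asks how the 5 transcripts differ between anaerobic and aerobic growth in each medium. FAA1 fell in all 4 media and was nearly silent without oxygen, while FAA4, ACB1 and FAA2 rose in all 4. FAA3 rose in isobutanol and did not pass in the other media. Of the 5 genes 4 passed in YPD, where 40.6% of all genes tested did. In 1-butanol 4 passed (59.5% of genes), against 5 for isobutanol (49.4%) and 4 for ethanol (53%). With so many genes differing between anaerobic and aerobic cultures, passing by itself sets none of the 5 apart. The cultures were stirred in a chamber or shaken in flasks, and handling and collection cannot be told apart from oxygen.

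FAA1, which encodes a long-chain synthetase, had 0.254, 0.454 and 0.583 RPKM (lowest, median, highest of 6) in anaerobic YPD, against 21.5, 26.8 and 30.1 RPKM in aerobic YPD. In anaerobic 1-butanol it had 0.246, 0.585 and 1.72 RPKM, against 58.6, 91.4 and 102 RPKM in aerobic 1-butanol. In anaerobic isobutanol it had 0.0606, 0.392 and 0.615 RPKM, against 40.0, 67.6 and 81.3 RPKM in aerobic isobutanol. The groups never overlapped, in any medium or strain. Its log2 difference was -4.85 ± 0.19 for YPD (SE, adjusted p = 4.4e-09), -6.14 ± 0.16 for 1-butanol (6e-25), -6.20 ± 0.19 for isobutanol (7.3e-10) and -6.94 ± 0.18 for ethanol (1.3e-17). On the deposited log2 scale, with no pseudocount, the same differences were -5.94, -7.07, -7.75 and -8.38, so the size of the fall depends on how the few anaerobic reads are treated. FAA1 passed the filter of these fits, a mean of at least 1 RPKM, through its aerobic libraries. Within ethanol, PAP had 0.196 and 0.264 RPKM in anaerobic libraries, against 86.1 and 177 RPKM in aerobic libraries, and IL01 had 0.265 and 0.587 RPKM, against 65.1 and 98.6 RPKM. The libraries labelled WA ethanol anaerobic, at 0.0509 and 0.376 RPKM, set against 169 and 195 RPKM in WA aerobic ethanol, were as low as the rest.

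FAA4, whose product shares the substrates of Faa1, moved the other way. It had 325, 479 and 1018 RPKM (lowest, median, highest of 6) in anaerobic YPD, against 174, 214 and 253 RPKM in aerobic YPD, and the 6 anaerobic libraries all lay above the 6 aerobic ones. In anaerobic isobutanol it had 899, 1134 and 1386 RPKM, against 208, 356 and 762 RPKM in aerobic isobutanol, again with no overlap. In 1-butanol the libraries of the 3 strains together overlapped, at 683, 988 and 1626 RPKM in anaerobic and 238, 350 and 767 RPKM in aerobic libraries, though not within any strain. FAA4 differed by 1.43 ± 0.13 on the log2 scale for YPD, 1.27 ± 0.15 for 1-butanol, 1.53 ± 0.12 for isobutanol and 1.24 ± 0.10 for ethanol (SE), a rise of 2.36-fold to 2.88-fold, with adjusted p of at most 3.8e-06. Over all genes the median of these comparisons, in the same order, was 0.26, 0.20, 0.19 and 0.00.

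ACB1, the carrier of acyl-CoA esters, rose most in YPD and in ethanol. In YPD it had 1283, 2398 and 3160 RPKM (lowest, median, highest of 6) in anaerobic libraries, against 480, 632 and 713 RPKM in aerobic libraries, without overlap. In ethanol PAP had 1681 and 1674 RPKM anaerobically, against 451 and 478 RPKM aerobically, and IL01 had 1859 and 1843 RPKM anaerobically, against 630 and 737 RPKM aerobically. On the log2 scale ACB1 differed by 1.83 ± 0.11 in YPD, 1.65 ± 0.10 in ethanol, 1.00 ± 0.17 in 1-butanol and 0.92 ± 0.13 in isobutanol (SE), with adjusted p of at most 0.00012. In the butanols WA stood apart, with 1660 and 3130 RPKM in anaerobic and 1887 and 2071 RPKM in aerobic 1-butanol, which overlap. The value of 1660 is from replicate 1, in which 59.0% of mapped reads fell in genes, against 80.7% in replicate 2, and RPKM is scaled by all mapped reads. In WA anaerobic isobutanol, where ACB1 had 2119 and 2881 RPKM, against 2121 and 2400 RPKM in aerobic libraries, the shares in genes were 66.4% and 79.7%. The part of these shares in the overlaps was not tested. PAP in 1-butanol had 2017 and 1852 RPKM anaerobically, against 758 and 771 RPKM aerobically. Quantile normalization, which gives every library of a fit the same distribution of values, raised the ACB1 difference to 1.65 in 1-butanol and 1.57 in isobutanol.

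FAA2, the peroxisomal synthetase, had 3.95, 4.71 and 5.69 RPKM (lowest, median, highest of 6) in anaerobic YPD, against 1.60, 2.20 and 4.18 RPKM in aerobic YPD. In YPD the groups overlapped through WA, which had 4.38 and 4.40 RPKM in anaerobic and 4.18 and 3.78 RPKM in aerobic libraries. In 1-butanol FAA2 had 7.23, 8.92 and 18.1 RPKM in anaerobic libraries, against 3.08, 3.77 and 4.55 RPKM in aerobic libraries, with no overlap. FAA2 differed by 1.34 ± 0.18 on the log2 scale in 1-butanol (SE, adjusted p = 6.7e-08), 1.28 ± 0.18 in isobutanol (0.00012), 1.22 ± 0.19 in ethanol (1.2e-05) and 0.83 ± 0.20 in YPD (0.0041). With quantile normalization the difference was 0.89 in 1-butanol and still passed, but in YPD it was 0.36 with adjusted p = 0.075. The YPD call was also lost without WA YPD anaerobic replicate 1 or 2, PAP YPD anaerobic replicate 1, IL01 YPD anaerobic replicate 2, PAP YPD aerobic replicate 2 or IL01 YPD aerobic replicate 1, with values between 0.74 and 0.92 over all 12 omissions and adjusted p up to 0.028.

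FAA3 had 39.6, 60.8 and 67.7 RPKM (lowest, median, highest of 6) in anaerobic YPD, against 36.3, 58.3 and 81.2 RPKM in aerobic YPD. Its log2 difference was 0.00 ± 0.15 in YPD, 0.34 ± 0.14 in 1-butanol (SE, adjusted p = 0.027) and -0.21 ± 0.11 in ethanol (0.11), none of which passed, and 0.53 ± 0.13 in isobutanol, which did (0.0055). In isobutanol WA had 55.0 and 50.6 RPKM in anaerobic libraries, against 31.2 and 27.5 RPKM in aerobic libraries, and PAP had 51.0 and 52.8 RPKM, against 49.1 and 45.3 RPKM. The strains went different ways in YPD, with differences of -0.59 in PAP, -0.04 in WA and 0.64 in IL01, although the test across strains did not pass (adjusted p = 0.25). The isobutanol call was not stable. It was lost in the fit without the variance trend (adjusted p = 0.011) and in 7 of 12 omissions, those of WA isobutanol anaerobic replicate 2, PAP isobutanol anaerobic replicate 1 or 2, WA isobutanol aerobic replicate 2, PAP isobutanol aerobic replicate 1 or 2 and IL01 isobutanol aerobic replicate 1 (values 0.41 to 0.65, adjusted p up to 0.032).

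**Figure D2:**
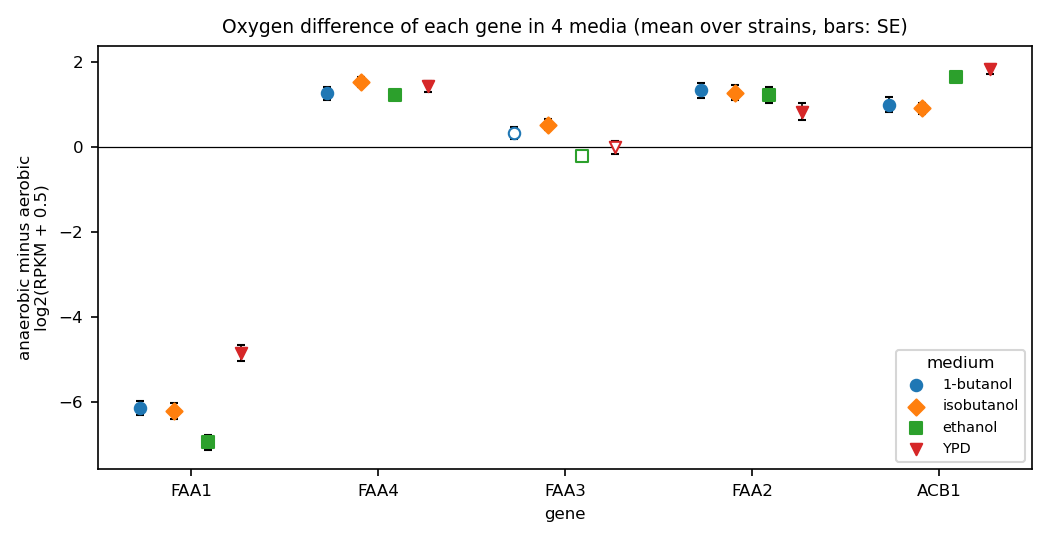
Difference between anaerobic and aerobic libraries in log2(RPKM + 0.5) for each gene in 4 media, with the SE as bars. Points are means over WA, PAP and IL01, except in ethanol, where they are over PAP and IL01, and filled points passed the test. FAA1 lies between -6.94 and -4.85 and the points of FAA4, FAA2 and ACB1 lie above 0 in every medium.

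Whether strains differed in these oxygen differences was tested as an interaction. It passed for FAA4 in ethanol only, where PAP and IL01 were compared (adjusted p = 0.0028, 6.98% of genes passed). FAA4 had 752 and 817 RPKM in PAP anaerobic ethanol, against 239 and 239 RPKM in PAP aerobic ethanol, a log2 difference of 1.71. In IL01 it had 506 and 608 RPKM in anaerobic ethanol, against 352 and 301 RPKM in aerobic ethanol, a difference of 0.77. The call was lost without the variance trend (adjusted p = 0.029), in a fit of all 48 libraries (0.049), and without PAP ethanol anaerobic replicate 1 or 2, IL01 ethanol anaerobic replicate 1, PAP ethanol aerobic replicate 1 or IL01 ethanol aerobic replicate 1 or 2 (adjusted p up to 0.034). With the WA-labelled libraries included FAA1 passed in ethanol too (0.0049, and 0.076 over PAP and IL01). FAA1 entered that fit through its aerobic level alone, with 1 to 10 reads per anaerobic ethanol library. Its result there mostly restates aerobic levels of the strains. No gene of the 5 passed in YPD (1.4% of all genes did), in 1-butanol (9.75%) or in isobutanol (2.2%). The nearest were ACB1 in 1-butanol, where WA had a difference of 0.21, PAP 1.34 and IL01 1.47 (adjusted p = 0.049), FAA4 in isobutanol, with 0.89 in WA, 2.25 in PAP and 1.44 in IL01 (0.051), and ACB1 in isobutanol, with 0.13, 1.44 and 1.19 (0.065). Those 3 passed in the fit of all 48 libraries, at adjusted p = 0.0019, 0.003 and 0.0024. ACB1 in 1-butanol also passed with voom weights (0.0049) and without PAP 1-butanol anaerobic replicate 1 or 2, and both isobutanol results without IL01 isobutanol anaerobic replicate 1 or 2.

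The next comparison asks how each alcohol changed the transcripts of aerobic cells. FAA1 and FAA4 rose in all 3 alcohols and ACB1 in both butanols, while FAA2 and FAA3 did not pass. In 1-butanol 3 of 5 passed (10.9% of all genes did), in isobutanol 3 (10.6%) and in ethanol 2 (7.15%), all of them higher. The median over all genes was 0.21, 0.17 and 0.21.

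FAA1 had 65.1, 134 and 195 RPKM (lowest, median, highest of 6) in aerobic ethanol, 58.6, 91.4 and 102 RPKM in 1-butanol and 40.0, 67.6 and 81.3 RPKM in isobutanol, against 21.5, 26.8 and 30.1 RPKM in YPD. Every alcohol library lay above every YPD library. The log2 difference from YPD was 2.17 ± 0.16 in ethanol (SE, adjusted p = 2.1e-05), 1.60 ± 0.10 in 1-butanol (1.3e-05) and 1.19 ± 0.10 in isobutanol (7e-05), or 4.50-fold, 3.03-fold and 2.28-fold. In ethanol WA reached 169 and 195 RPKM and IL01 65.1 and 98.6 RPKM. The PAP replicates in ethanol were far apart, at 86.1 and 177 RPKM.

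FAA4 had 238, 350 and 767 RPKM (lowest, median, highest of 6) in aerobic 1-butanol, 208, 356 and 762 RPKM in isobutanol and 239, 326 and 453 RPKM in ethanol, against 174, 214 and 253 RPKM in YPD. Relative to YPD the log2 difference was 0.95 ± 0.12 in 1-butanol (SE, adjusted p = 0.00071), 0.93 ± 0.10 in isobutanol (0.00018) and 0.60 ± 0.09 in ethanol (0.0019). The high values were those of WA, with 767 and 684 RPKM in 1-butanol and 762 and 734 RPKM in isobutanol, against 253 and 234 RPKM in YPD. PAP reached 332 and 293 RPKM in 1-butanol and 272 and 208 RPKM in isobutanol, against 216 and 179 RPKM in YPD, and its isobutanol libraries overlapped its YPD libraries. The ethanol call was lost without PAP YPD aerobic replicate 2 or IL01 ethanol aerobic replicate 1 (0.53 to 0.68 over the 12 omissions, adjusted p up to 0.011).

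ACB1 rose in the butanols and not in ethanol. It had 758, 932 and 2071 RPKM (lowest, median, highest of 6) in 1-butanol, 657, 1060 and 2400 RPKM in isobutanol and 451, 622 and 741 RPKM in ethanol, against 480, 632 and 713 RPKM in YPD. The log2 difference was 0.90 ± 0.07 in 1-butanol (SE, adjusted p = 3.5e-05), 0.96 ± 0.07 in isobutanol (2.6e-05) and 0.00 ± 0.08 in ethanol (0.98). WA again had the highest values, 1887 and 2071 RPKM in 1-butanol and 2121 and 2400 RPKM in isobutanol, against 702 and 713 RPKM in YPD. PAP had 758 and 771 RPKM in 1-butanol and 657 and 677 RPKM in isobutanol, against 486 and 480 RPKM in YPD. Within every strain both butanol groups lay above YPD.

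FAA3 and FAA2 moved less. FAA3 had 34.7, 43.5 and 57.4 RPKM (lowest, median, highest of 6) in 1-butanol, 27.5, 41.1 and 54.9 RPKM in isobutanol and 47.1, 70.8 and 82.4 RPKM in ethanol, against 36.3, 58.3 and 81.2 RPKM in YPD. The log2 difference was -0.35 ± 0.12 in 1-butanol (SE, adjusted p = 0.061), -0.50 ± 0.13 in isobutanol (0.022) and 0.23 ± 0.10 in ethanol (0.14). With quantile normalization the butanol values were -0.58 (adjusted p = 0.001) and -0.69 (0.00074), which pass, as they did with a block per strain and replicate (0.008 and 0.002), and isobutanol also passed in the fit of all 48 libraries (0.002). In WA and PAP the FAA3 level of both butanol groups lay below YPD, whereas in IL01 they overlapped it. FAA2 differed by 0.53 ± 0.16 in 1-butanol (adjusted p = 0.043, passing at 0.0062 only in the fit of all 48 libraries), 0.38 ± 0.18 in isobutanol (0.17) and 0.10 ± 0.17 in ethanol (0.69).

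**Figure D3:**
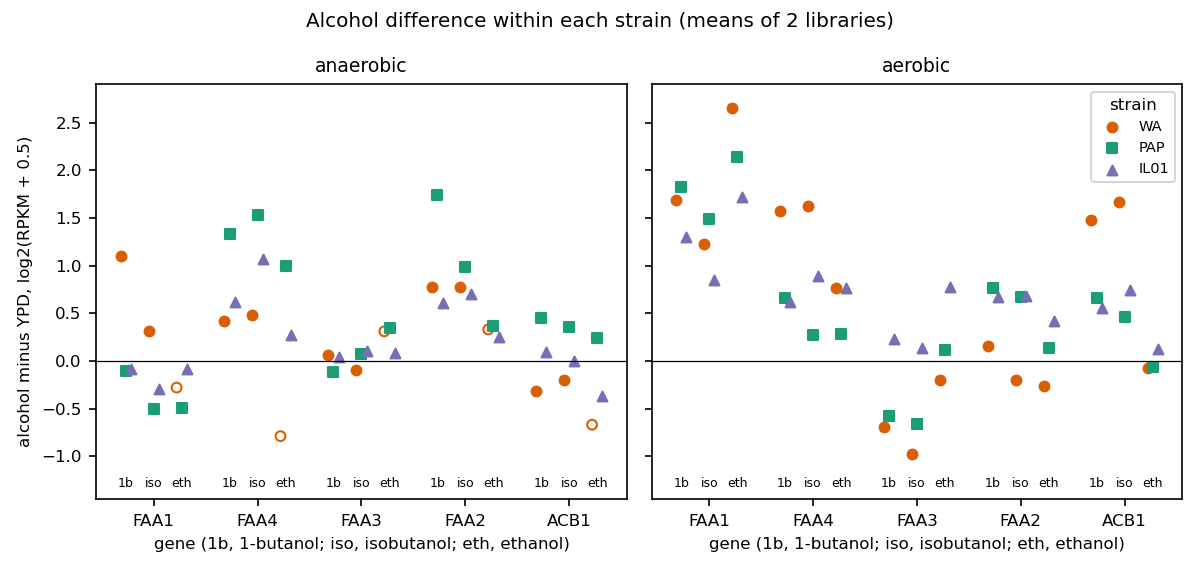
Difference between each alcohol and YPD in log2(RPKM + 0.5) within each strain, in anaerobic cultures on the left and aerobic cultures on the right. Each point is the difference of the means of 2 libraries, and the open circles use the libraries labelled WA ethanol anaerobic. Aerobically FAA1 is above 0 in every strain and alcohol, from 0.85 to 2.65, and WA has the highest FAA4 and ACB1 points in both butanols.

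None of these aerobic differences was shown to differ between strains at the threshold. The interaction of 1-butanol with strain passed for 0.269% of genes, that of isobutanol for 0.125% and that of ethanol for 0%. For ethanol this was 0 of 5619 genes in limma, with 762 at an unadjusted p under 0.05. Other settings that kept every library gave 0% to 0.771%. The ethanol share also depended on single libraries, and leaving 1 out could raise it above that range. For ACB1 the isobutanol difference was 1.67 for WA, 0.46 for PAP and 0.74 for IL01 (adjusted p of the interaction 0.031), and in 1-butanol it was 1.48, 0.66 and 0.56 (0.05). For FAA4 the isobutanol difference was 1.62 for WA, 0.27 for PAP and 0.89 for IL01 (0.088) and 1.57, 0.66 and 0.62 in 1-butanol (0.31). With a block per strain and replicate number, 1-butanol passed for both genes (ACB1 0.004, FAA4 0.0098) and no other setting and no omission of a library made either pass.

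In anaerobic cells the same comparison gave another set of genes. FAA4 and FAA2 rose in both butanols. FAA4 also rose in ethanol over PAP and IL01, a call lost when the WA-labelled libraries were left out of the fit. ACB1 and FAA3 did not pass in any alcohol. FAA1 was below the mean of 1 RPKM needed for the test. Of the other 4 genes 2 passed in 1-butanol (27.7% of all genes did), 2 in isobutanol (14.1%) and 1 in ethanol (7.52%). The median over all genes was 0.16, 0.10 and 0.03.

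FAA2 had 7.23, 8.92 and 18.1 RPKM (lowest, median, highest of 6) in anaerobic 1-butanol and 6.62, 8.48 and 12.2 RPKM in isobutanol, against 3.95, 4.71 and 5.69 RPKM in YPD. Every butanol library lay above every YPD library, and PAP in 1-butanol, at 18.1 and 14.6 RPKM, was the highest. The log2 difference was 1.04 ± 0.19 in 1-butanol (SE, adjusted p = 2.6e-05), 0.82 ± 0.17 in isobutanol (0.0032) and 0.31 ± 0.21 in ethanol (0.41). The isobutanol call was lost with quantile normalization (0.58, adjusted p = 0.03). It was also lost without WA YPD anaerobic replicate 1, PAP YPD anaerobic replicate 2, IL01 YPD anaerobic replicate 1, WA isobutanol anaerobic replicate 2 or PAP isobutanol anaerobic replicate 1 or 2 (0.69 to 0.95, adjusted p up to 0.02).

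FAA4 had 683, 988 and 1626 RPKM (lowest, median, highest of 6) in anaerobic 1-butanol and 899, 1134 and 1386 RPKM in isobutanol, against 325, 479 and 1018 RPKM in YPD. The overlap came from WA, which was already at 1018 and 959 RPKM in YPD and had 1077 and 1626 RPKM in 1-butanol. PAP had 972 and 1005 RPKM in 1-butanol and 1135 and 1132 RPKM in isobutanol, against 474 and 325 RPKM in YPD. The 325 RPKM, which also enter the ethanol comparison, are from PAP YPD replicate 2, with 55.57% of mapped reads in genes (78.82% in replicate 1). The 1077 RPKM are from WA 1-butanol replicate 1, with 59.05% (80.7% in replicate 2). The part of these shares in the FAA4 differences was not tested. The log2 difference was 0.79 ± 0.19 in 1-butanol (SE, adjusted p = 0.00093) and 1.03 ± 0.17 in isobutanol (5e-04).

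In anaerobic ethanol FAA4 had 752 and 817 RPKM in PAP, against 474 and 325 RPKM in PAP YPD, and 506 and 608 RPKM in IL01, against 440 and 484 RPKM in IL01 YPD. The log2 difference over both strains was 0.63 ± 0.14 (SE, adjusted p = 0.0039). The libraries labelled WA ethanol anaerobic went the other way, with 573 and 572 RPKM, against 1018 and 959 RPKM in WA YPD, a difference of -0.79 ± 0.19 that passed (0.0076, 10.4% of genes passed). ACB1 in those libraries had 1670 and 1903 RPKM, against 2551 and 3160 RPKM in WA YPD (-0.67 ± 0.19, adjusted p = 0.016), which passed with a block per strain and replicate (0.0071), with quantile normalization (-0.79, 0.00021) and without PAP YPD anaerobic replicate 1 or 2. Since these libraries carry the low or high levels of PAP and IL01 at 5 of 6 strain-specific genes, whether this is a response of WA to ethanol or a difference between strains cannot be told apart. The FAA4 rise in PAP and IL01 did not pass when the WA-labelled libraries were left out of the fit (0.63, adjusted p = 0.013), when they were added to the mean (0.16, 0.35) or without the variance trend (0.023). It was also lost in 7 of 12 omissions, those of IL01 YPD anaerobic replicate 1 or 2, either WA-labelled ethanol library, PAP ethanol anaerobic replicate 1 or 2 and IL01 ethanol anaerobic replicate 2 (0.47 to 0.79, adjusted p up to 0.028). The WA-labelled fall was lost without WA YPD anaerobic replicate 1 or 2, IL01 YPD anaerobic replicate 1 or either labelled ethanol library (adjusted p up to 0.09), without the trend (0.033) and without the filter on low genes (0.013).

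ACB1 had 1660, 2144 and 3130 RPKM (lowest, median, highest of 6) in anaerobic 1-butanol and 1678, 2075 and 2881 RPKM in isobutanol, against 1283, 2398 and 3160 RPKM in YPD, groups that overlap fully. Its log2 difference was 0.07 ± 0.22 in 1-butanol (SE, adjusted p = 0.82), 0.05 ± 0.20 in isobutanol (0.88) and -0.07 ± 0.13 in ethanol (0.84). Only quantile normalization, among the settings tried, made 1-butanol pass, at 0.49 (adjusted p = 0.0011). FAA3 differed by -0.01 ± 0.16, 0.02 ± 0.14 and 0.21 ± 0.16 in the same order. FAA1 stayed at 0.0509 to 1.72 RPKM in all anaerobic alcohol libraries, against 0.254 to 0.583 RPKM in anaerobic YPD, and its highest values, 0.986 and 1.72 RPKM from 21 and 27 reads, were those of WA in 1-butanol. No anaerobic interaction of alcohol with strain passed for the 4 genes tested, where 2.38% of all genes passed in 1-butanol, 0.316% in isobutanol and 0.619% in ethanol. For FAA4 in ethanol the interaction over PAP and IL01 had adjusted p = 0.19, and with the WA-labelled libraries included it passed (0.00074). It also passed without PAP YPD anaerobic replicate 1.

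The design also asks whether the alcohol differences depend on oxygen. The test passed for ACB1 in the butanols and for FAA1 in all 3 alcohols, and did not pass for FAA2, FAA3 or FAA4. The FAA1 result mostly restates its aerobic rise, since FAA1 entered these fits through its aerobic level alone and its anaerobic response could not be tested. Its anaerobic median of 0.419 RPKM lies below the pseudocount of 0.5. In 1-butanol 2 of 5 genes passed (7.18% of all genes did), in isobutanol 2 (3.47%) and in ethanol 1 (1.99%). The median over all genes was -0.09, -0.09 and -0.29. The anaerobic minus the aerobic difference of FAA1 was -1.29 ± 0.23 in 1-butanol (SE, adjusted p = 7e-04), -1.35 ± 0.24 in isobutanol (0.0021) and -2.22 ± 0.30 in ethanol (0.00029). These values rest on 1 to 27 anaerobic reads per library. With a pseudocount of 0.1 the butanol values were -1.18 (0.014) and -1.58 (0.024), with voom weights -1.12 (0.023) and -1.68 (0.015), and on the deposited log2 scale the 3 values were -1.13 (0.039), -1.81 (0.064) and -2.67 (0.011), none of which passes. No omission of a single library ended the FAA1 calls.

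For ACB1 the anaerobic minus the aerobic difference was -0.83 ± 0.20 in 1-butanol (SE, adjusted p = 0.0085), -0.91 ± 0.17 in isobutanol (0.0033) and -0.09 ± 0.15 in ethanol (0.69). Quantile normalization brought the butanol values to -0.34 (0.021) and -0.46 (0.02), and the 1-butanol call was also lost without the filter (0.01) or the trend (0.012). In 1-butanol the call survived the omission of PAP YPD anaerobic replicate 2, WA 1-butanol anaerobic replicate 1 or 2, PAP 1-butanol anaerobic replicate 1 or IL01 1-butanol anaerobic replicate 2 and was lost for the other 19 of 24 libraries (-0.97 to -0.68, adjusted p up to 0.028). In isobutanol it was lost for 11 of 24, which were WA YPD anaerobic replicate 2, IL01 YPD anaerobic replicate 1, PAP isobutanol anaerobic replicates 1 and 2, WA YPD aerobic replicate 2, PAP YPD aerobic replicate 2, IL01 YPD aerobic replicate 1, WA isobutanol aerobic replicates 1 and 2, PAP isobutanol aerobic replicate 1 and IL01 isobutanol aerobic replicate 2 (-1.01 to -0.81, adjusted p up to 0.013). FAA4 had values of -0.16 ± 0.20 for 1-butanol, 0.10 ± 0.17 for isobutanol and 0.11 ± 0.17 for ethanol. The 1-butanol value is 0.33 with quantile normalization.

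The alcohols were then set against each other, at doses that differ. Aerobically the butanols gave lower FAA1 and FAA3 and higher ACB1 than ethanol, 3 of 5 genes past the test (14% of all genes). The log2 difference of the butanol mean from ethanol was -0.78 ± 0.11 for FAA1 (SE, adjusted p = 7.9e-05), -0.66 ± 0.10 for FAA3 (9.7e-05) and 0.93 ± 0.06 for ACB1 (1.3e-08). FAA4 had 0.34 ± 0.09 (0.014), which passed with voom weights (0.009), with a block per strain and replicate (0.0032) and without IL01 1-butanol aerobic replicate 1 or PAP isobutanol aerobic replicate 2, and FAA2 had 0.36 ± 0.13 (0.053), which passed with quantile normalization (0.52, 0.0024). Anaerobically FAA2 passed, with 0.70 ± 0.16 (adjusted p = 0.0037, 1 of 4 genes tested and 16.9% of all genes), and FAA4 had 0.51 ± 0.15 (0.013). The FAA2 call was lost with quantile normalization (0.53, 0.019) and without PAP 1-butanol anaerobic replicate 1, PAP isobutanol anaerobic replicate 1, PAP ethanol anaerobic replicate 1 or 2 or IL01 ethanol anaerobic replicate 1 (0.54 to 0.87, adjusted p up to 0.058). FAA4 passed with quantile normalization (0.73, 0.00077), without the trend (0.009), in the fit of all 48 libraries (0.0021) and with the WA-labelled libraries in the ethanol mean (0.75, 8.2e-05), and without PAP YPD anaerobic replicate 1 or 2, WA 1-butanol anaerobic replicate 1 or 2 or IL01 isobutanol anaerobic replicate 2. FAA3 (-0.19 ± 0.14, 0.31) and ACB1 (0.29 ± 0.17, 0.22) passed with quantile normalization alone (-0.42, 0.0044, and 0.68, 2.6e-05).

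1-butanol and isobutanol are isomers, given at 0.8% and 1%, and none of the 5 genes passed between them (2.96% of all genes passed aerobically and 1.37% anaerobically). The nearest was FAA1 in aerobic cells, with 0.41 ± 0.13 (SE, adjusted p = 0.089), where WA had 97.8 and 87.9 RPKM in 1-butanol, against 67.7 and 67.5 RPKM in isobutanol, and IL01 had 58.6 and 60.2 RPKM, against 40.0 and 47.0 RPKM. In each strain both 1-butanol libraries lay above both isobutanol libraries. ACB1 had -0.06 ± 0.07 aerobically and 0.02 ± 0.16 anaerobically, and FAA4 had 0.03 ± 0.11 and -0.24 ± 0.14.

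Strains were compared in YPD as each strain against the mean of the 3. In anaerobic YPD FAA4 was higher in WA and ACB1 was lower in PAP. FAA4 had 1018 and 959 RPKM in WA, set beside 474 and 325 RPKM in PAP and 440 and 484 RPKM in IL01, and WA exceeded the mean by 0.81 ± 0.13 on the log2 scale (SE, adjusted p = 0.002). That was 1 of 5 genes in WA (4.58% of all genes), and it was lost without either WA anaerobic replicate (0.71 to 0.90 over the 12 omissions, adjusted p up to 0.082) and without the trend (0.013). ACB1 had 1565 and 1283 RPKM in PAP, set beside 2551 and 3160 RPKM in WA and 2353 and 2444 RPKM in IL01, and PAP lay at -0.59 ± 0.11 from the mean (0.0069, 1 of 5 genes, 5.51% of all). PAP was lower across genes too, with a median of -0.13 and 252 genes lower and 58 higher. In PAP replicate 2, with 1283 RPKM, 55.6% of mapped reads fell in genes, against 78.8% in replicate 1, and the median log2 RPKM was 4.20, against 4.72 in replicate 1. With quantile normalization PAP lay at -0.41 (0.0041). The ACB1 call was lost without the filter (0.01), without the trend (0.036) and in 9 of 12 omissions, all but PAP YPD anaerobic replicate 1 and WA YPD aerobic replicates 1 and 2 (-0.74 to -0.43, adjusted p up to 0.11). Short of the threshold were FAA4 in PAP (-0.52 ± 0.13, 0.021) and ACB1 in WA (0.42 ± 0.11, 0.044). FAA4 in PAP passed with no replicate block (0.007), in the fit of all 48 libraries (0.0011) and without WA YPD aerobic replicate 1 or 2, and ACB1 in WA with quantile normalization (0.37, 0.0059) and in the fit of all 48 libraries (0.0098). None of the 5 passed in IL01 (4.03% of all genes), where FAA4 had -0.29 ± 0.13 (0.27) and -0.55 (0.0027) with quantile normalization.

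In aerobic YPD no strain differed from the mean at the threshold for any of the 5, where 3.06% of all genes passed in WA, 2.63% in PAP and 2.45% in IL01. FAA1 was the most even of the 5 there, with 30.1 and 27.0 RPKM in WA, 29.1 and 26.1 RPKM in PAP and 21.5 and 26.6 RPKM in IL01. FAA2 in WA, at 4.18 and 3.78 RPKM, lay above 2.47 and 1.60 RPKM in PAP and 1.61 and 1.93 RPKM in IL01 (0.61 ± 0.20, SE, adjusted p = 0.13, and 0.0044 in the fit of all 48 libraries). FAA3 was 81.2 and 69.0 RPKM in PAP and 36.3 and 46.7 RPKM in IL01, with 0.40 ± 0.15 (0.23) and -0.45 ± 0.15 (0.14) from the mean.

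Set side by side as shares of the summed RPKM of FAA1 to FAA4, FAA4 made up 86.8% to 95.9% (median 92.1%) in the 24 anaerobic libraries and 48.1% to 88.2% (median 70.8%) in the 24 aerobic ones. FAA1 made up 0.00533% to 0.158% in anaerobic libraries and 7.84% to 35.5% (median 11.6%) in aerobic libraries. In aerobic ethanol the FAA1 share was highest, at 13.2% to 35.5% (median 22.9%), against 8.35% to 9.49% (median 9.04%) in aerobic YPD. The ratio of FAA4 to FAA1 was 557 to 17200 in anaerobic libraries, from few FAA1 reads, and 1.35 to 11.2 in aerobic libraries. Even where FAA1 was at its highest, FAA4 remained the more abundant transcript. FAA3 gave 3.52% to 12.1% in anaerobic and 3.30% to 25.0% in aerobic libraries, and FAA2 no more than 1.75% in any. The sum itself was 369 to 1700 RPKM (median 930.0) in anaerobic and 233 to 907 RPKM (median 462) in aerobic libraries. ACB1 stood at 1.40 to 4.64 times that sum anaerobically and 0.959 to 2.88 times aerobically.

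**Figure D4:**
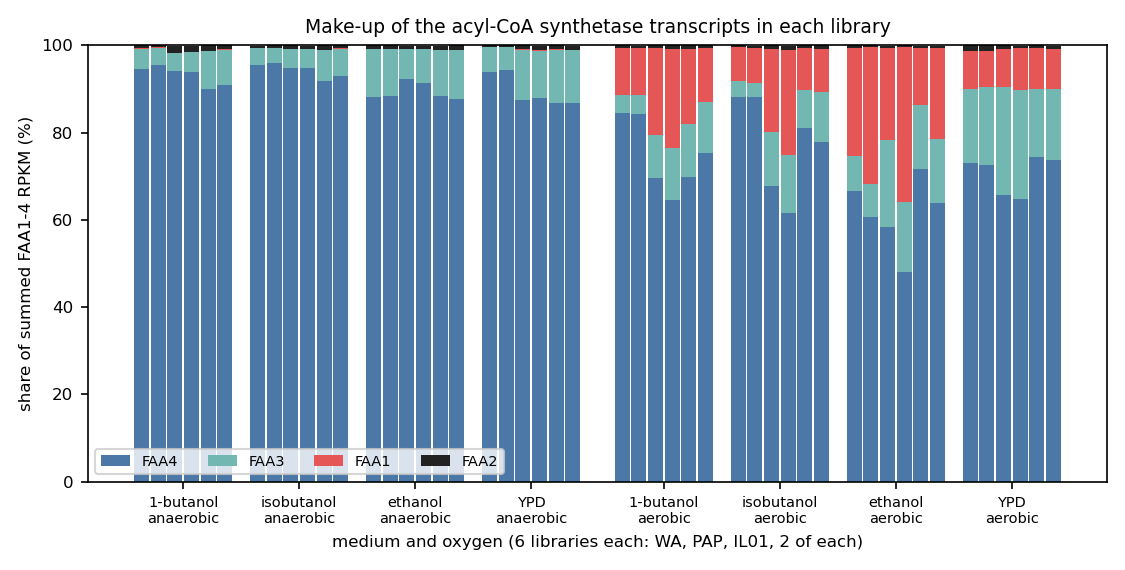
Share of each synthetase in the summed RPKM of FAA1, FAA2, FAA3 and FAA4 (percent, axis from 0) in every library, with anaerobic cultures on the left and aerobic cultures on the right. Each bar is 1 library, in the order WA, PAP, IL01 within a medium. FAA1 is at most 0.158% of the sum in anaerobic libraries and 7.84% to 35.5% in aerobic libraries.

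Over the 23 groups other than the one labelled WA ethanol anaerobic, the mean levels of FAA4 and ACB1 went together (Pearson r = 0.89), also within the 12 aerobic groups (0.90), and less within the 11 anaerobic groups (0.43). FAA3 ran against ACB1 over the 12 aerobic groups (-0.85) and had r = -0.16 with it over all 23. FAA1 had r = -0.77 with FAA2, -0.75 with ACB1 and -0.68 with FAA4 over all 23, and 0.37, 0.12 and 0.46 over the 12 aerobic groups. These are descriptions over groups that share strains, media and collection days, and the values over all 23 mostly contrast anaerobic with aerobic libraries. The genes most like FAA1 among 4494 with a mean of at least 10 RPKM were ROX1, which encodes a repressor of hypoxic genes (r = 0.985), ISU1, an iron-sulfur cluster scaffold (0.982), SOD2, mitochondrial superoxide dismutase (0.981), the iron permease gene FTR1 (0.975) and YDL086W (0.967). Those most like FAA4 were YJU3 (0.947), which encodes a monoglyceride lipase, GMH1 (0.943), LYS5 (0.94), the acyltransferase gene SLC1 (0.928) and MRX11 (0.926). For ACB1 they were OTU1 (0.963), PHS1 (0.949), a dehydratase of fatty acid elongation, IZH4 (0.943), YNL320W (0.942) and CBR1 (0.938). For FAA2 they were VPS15 (0.963), ROG1 (0.955), MDR1 (0.948), HUL5 (0.946) and ATG18 (0.943). FAA3 had no close match, with CBP3 first at 0.705 and the fifth, MSB2, at 0.635.

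The enzymes that supply and use acyl-CoA are given as lists drawn up from pathway knowledge, but with earlier results of these data known. Counts from these lists, here and below, are descriptions and not independent of the data. Between anaerobic and aerobic YPD, 7 of 14 fatty acid synthesis genes rose and 2 fell, with a median of 0.72, where 40.6% of all genes passed with a median of 0.26. In ethanol 8 rose and 4 fell (median 0.82, where 53% of all genes passed with a median of 0.00). In each butanol 7 rose and 3 fell, with medians of 0.55 in 1-butanol (59.5% and 0.20 over all genes) and 0.66 in isobutanol (49.4% and 0.19). OLE1, the desaturase, rose by 1.81 ± 0.12 in YPD and 2.76 ± 0.10 in ethanol (SE), and MGA2, an activator of OLE1, by 3.68 ± 0.19 in YPD. FAS2, a fatty acid synthase subunit, rose by 1.68 ± 0.12 in YPD. Of 14 acyltransferases that use acyl-CoA 7 rose and 3 fell in YPD (median 0.54), with ALE1, a lysophospholipid acyltransferase, at 3.48 ± 0.13. The sterol acyltransferase pair split, with ARE1 at 2.96 ± 0.14 and ARE2 at -3.16 ± 0.14 in YPD. Of 19 peroxisomal beta-oxidation genes 15 were tested in YPD and 4 rose and 3 fell (median 0.40), among them TES1, a thioesterase (1.16 ± 0.17), and ANT1, the peroxisomal ATP carrier (-1.70 ± 0.13). Of 9 lipid hydrolysis genes 4 rose and 1 fell in YPD (median -0.08), with PLB2 at 1.98 ± 0.12 and the steryl ester hydrolase gene YEH1 at -3.16 ± 0.16. The counts of these last lists, 7 of 15 and 5 of 9, are near the 40.6% of all genes.

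Against YPD in aerobic cells, 7 of 14 acyltransferases that use acyl-CoA rose in 1-butanol (median 0.52), where 10.9% of all genes passed with a median of 0.21. In isobutanol 4 of 14 rose (median 0.42), where 10.6% of all genes passed with a median of 0.17. In ethanol 0 of 14 passed (median 0.13), where 7.15% of all genes did with a median of 0.21. EEB1, an alcohol acyltransferase that makes ethyl esters, rose by 1.65 ± 0.13 in 1-butanol (SE), SLC1 by 0.76 ± 0.08 in 1-butanol and 0.56 ± 0.08 in isobutanol, and ARE2 by 0.73 ± 0.08 in 1-butanol. Fatty acid synthesis genes rose for 3 of 14 in 1-butanol, 2 of 14 in isobutanol and 1 of 14 in ethanol, near the 10.6% and 7.15% of all genes in isobutanol and ethanol. Their medians of 0.19, 0.12 and 0.04 lay below those of all genes, 0.21, 0.17 and 0.21. In 1-butanol MGA2 rose by 1.56 ± 0.22 and PHS1 by 0.86 ± 0.06. In the beta-oxidation list 2 of 15 genes tested rose in 1-butanol (10.9% of all genes passed) and 2 of 16 in isobutanol (10.6%). In ethanol 2 of 16 rose and 2 fell (7.15%). PCS60, a peroxisomal CoA ligase kept in that list, rose in all 3 alcohols. Its differences were 1.05 ± 0.09 in 1-butanol, 0.71 ± 0.10 in isobutanol and 0.48 ± 0.10 in ethanol. PEX11 (-0.79 ± 0.10) and ANT1 (-0.68 ± 0.09) fell in ethanol. PLB1, a phospholipase B, rose by 1.18 ± 0.10 in 1-butanol, 0.94 ± 0.14 in isobutanol and 1.29 ± 0.11 in ethanol. It was the only 1 of 9 lipid hydrolysis genes to pass in each, a count near the share of all genes. In anaerobic cells PLB1 rose by 1.49 ± 0.16 in 1-butanol, 1.38 ± 0.17 in isobutanol and 0.90 ± 0.15 in ethanol, and PCS60 by 1.25 ± 0.16 and 0.95 ± 0.15 in the butanols. Of the 9 lipid hydrolysis genes 3 rose there in 1-butanol (27.7% of all genes passed), 1 in isobutanol (14.1%) and 1 in ethanol (7.52%). Of the 14 acyltransferases 4 rose and 1 fell in anaerobic 1-butanol, 2 rose in isobutanol and 1 rose in ethanol. Beta-oxidation genes there rose for 4 of 14 tested in 1-butanol and 3 of 14 in isobutanol, against 27.7% and 14.1% of all genes passing, most of them higher, so the 1-butanol count is at the background. CAT2, which encodes carnitine acetyltransferase, rose by 2.01 ± 0.19 in 1-butanol.

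Between strains in anaerobic YPD, the list with the largest single difference was fatty acid synthesis. ELO1, a medium-chain elongase, differed from the mean by 3.05 ± 0.15 in WA and -2.71 ± 0.15 in PAP (SE). OLE1 differed by 0.72 ± 0.12 in WA and -0.68 ± 0.12 in PAP, and PHS1 by 0.65 ± 0.13 and -0.76 ± 0.13. In all, 3 of 14 genes were higher in WA, where 4.58% of all genes passed (175 higher and 83 lower), and 4 of 14 were lower in PAP, where 5.51% did (58 higher and 252 lower). In the libraries labelled WA ethanol anaerobic ELO1 lay at -3.87 ± 0.25 from WA YPD. These libraries lie with PAP and IL01 at 5 of 6 strain-specific genes. A response of WA to ethanol therefore cannot be told apart here from a difference between strains.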

How the data were processed

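RNA-seq of 48 cultures was used, in 24 groups by strain, medium and oxygen with 2 replicates each. Per the study's methods, rRNA-depleted stranded libraries were read as single ends, reads were trimmed with Trimmomatic, aligned to S288c (R64) with BWA and summed per gene with HTSeq, whose strand setting is not given in the sources used here. Reads of wild strains that differ from S288c may align less well. The authors deposited log2 RPKM values, with exact 0 for genes without reads. Of the table's lines, 4 are not analysed here. Values were turned back to RPKM, and RPKM times gene length gave whole reads, within 0.01, for 6012 of 6713 identifiers (89.56%), 691 having no match in RefSeq. These reads entered the alternative voom fit and the read numbers given here.

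Genes with a mean of at least 1 RPKM over a fit were tested on log2(RPKM + 0.5) in limma 3.58.1 (R 4.3.3) with a variance trend and the Benjamini-Hochberg adjustment over all genes. Fits held the 12 libraries of 2 media or of YPD, or the 24 libraries of an oxygen condition or of 2 media under both. The study fitted a count model to 12 samples of 2 environments together with strain, medium and paired replicates. The 12-library fits have that layout, while limma on log2 values and the 24-library fits are choices made here. Replicate number, separately for each oxygen condition, served as the block, since the study collected replicates on different days as pairs. Strain interactions were joint tests. The fits were tested on simulated data. The 5 genes are always named, and per list the text names those past the threshold with the largest change and a mean of at least 10 RPKM, up to 3 a comparison. The members and lists were chosen with earlier results of these data known. Alternatives were pseudocounts of 0.1 and 1, the deposited log2 values, no filter, no block, a block per strain and replicate, no trend, voom weights, quantile normalization, all 48 libraries together, the WA-labelled ethanol libraries left out or added, and each library left out. Sequences and coordinates are from RefSeq R64. Motifs and identities were computed with Python 3.11.15 and Biopython 1.88.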

Additional observations from a re-analysis of the deposited data

Results flagged for a closer look

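Each of the results here is a difference between groups in the size of the same contrast, past the threshold of a limma test of the difference itself. ACB1 differed between anaerobic and aerobic cells in its response to 1-butanol (adjusted p = 0.0085) and isobutanol (0.0033). The same test gave adjusted p = 0.0007 for FAA1 in 1-butanol, 0.0021 in isobutanol and 0.00029 in ethanol. FAA1 passed the filter through its aerobic level alone and its anaerobic response was not tested, so these values mostly restate its aerobic rise. None of the 3 passed on the deposited log2 scale (adjusted p = 0.039, 0.064 and 0.011), nor did either butanol value with a pseudocount of 0.1 or with voom weights. The oxygen difference of FAA4 in ethanol was larger in PAP than in IL01 (adjusted p = 0.0028). That call was lost without the variance trend (0.029), in the fit of all 48 libraries (0.049) and in 6 of 12 omissions of a library. Both ACB1 calls were lost with quantile normalization (0.021 in 1-butanol and 0.02 in isobutanol). They were also lost in 19 of 24 omissions for 1-butanol and 11 of 24 for isobutanol. Groups hold 2 libraries each, too few to look for a library far from the others of its group.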

How the results depend on the processing

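Of 161 tests of the 5 genes, 43 passed, and 29 of these passed under every other setting and 28 also with each library left out. The oxygen calls of FAA1, FAA4 and ACB1 were among them in every medium, as were the aerobic alcohol calls of FAA1. The aerobic butanol calls of FAA4 and ACB1 and the anaerobic butanol calls of FAA4 were too. FAA1 passed the filter of the oxygen fits through its aerobic libraries, and its anaerobic response to alcohols was not tested. Counts of calls by comparison were as follows, the cause of a change being untested. Strain differences numbered 2, and 1 without the filter, 0 without the trend, 4 with quantile normalization, 5 in the fit of all 48 libraries and 0 to 3 with a library left out. Strain-by-alcohol calls numbered 0, and 2 with a block per strain and replicate, 1 with the WA-labelled libraries in the ethanol mean and 0 to 1 with a library left out. Strain-by-oxygen calls numbered 1, and 0 without the trend, 2 with voom weights, 3 in the fit of all 48 libraries, 2 with the WA-labelled libraries and 0 to 3 with a library left out. Alcohol-by-oxygen calls numbered 5, and 3 with a pseudocount of 0.1, voom weights or quantile normalization, 2 on deposited values and 3 to 5 with a library left out. Differences between alcohols numbered 4, and 7 with quantile normalization. Alcohol calls stayed at 12 to 17 (14 as reported) and oxygen calls at 16 to 17 (17 as reported).

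Without the replicate block the counts were 3 strain differences and otherwise as before, 14, 0, 17, 1, 5 and 4. Deviations of same-numbered libraries from their group means had a median correlation of 0.08 in 66 anaerobic group pairs (-0.42 to 0.77) and 0.09 in 66 aerobic pairs (-0.44 to 0.67), so the pairing rests on the study's statement. The block per strain and replicate could not be fitted for strain differences or oxygen comparisons.

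Signs turned for values near 0 that had not passed. With quantile normalization these were, for the strain minus the mean in anaerobic YPD, FAA2 in PAP (0.11), FAA1 in IL01 (-0.13) and FAA2 in IL01 (-0.01), then FAA3 in anaerobic isobutanol (-0.10), FAA2 in aerobic ethanol (-0.36) and FAA4 in 1-butanol by oxygen (0.33). With the WA-labelled libraries in the mean they were FAA3 in ethanol between oxygen conditions (0.01), and FAA3 (0.01) and FAA4 (-0.44) in ethanol by oxygen, and on deposited values FAA2 in ethanol by oxygen (-0.01). With a library left out, anaerobic YPD gave FAA1 in PAP -0.03 to 0.27, FAA2 in PAP -0.20 to 0.08, FAA3 in PAP -0.39 to 0.01 and FAA1 in IL01 -0.03 to 0.11. Aerobic YPD gave FAA3 in WA -0.03 to 0.13, FAA1 in PAP -0.02 to 0.13, FAA4 in PAP -0.21 to 0.03, FAA4 in IL01 -0.28 to 0.03 and ACB1 in IL01 -0.04 to 0.18. Anaerobic alcohols gave FAA3 -0.13 to 0.12 and ACB1 -0.07 to 0.22 in 1-butanol, FAA3 -0.06 to 0.11 and ACB1 -0.05 to 0.15 in isobutanol and ACB1 -0.16 to 0.03 in ethanol. Ethanol by oxygen gave FAA2 -0.10 to 0.16 and FAA4 -0.05 to 0.27, and 1-butanol minus isobutanol gave FAA3 -0.11 to 0.05 and ACB1 -0.10 to 0.15 anaerobically and FAA4 -0.10 to 0.15 aerobically. Quantile normalization moved the median over all genes, -0.29 to 0.26 over the comparisons, to between -0.06 and 0.02, and the share of higher calls in anaerobic 1-butanol was 48.3% with it and 74.3% without it. FAA1 in anaerobic cells, at 1 to 27 reads, is limited by depth.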
